A study of Homo sapiens with 197 samples.

Results

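The MAGE genes MAGEA3, MAGEA12 and MAGEB18 were followed across a screen in which human lung fibroblasts received activated kinases. They are 3 of the 42 tissue-restricted genes on the Nanostring panel, which held 75 rows in all, of which 57 were endogenous. They were chosen by name, as the rows for MAGEA3 (NM_005362.3), MAGEA12 (NM_001166386.1) and MAGEB18 (NM_173699.3). Other rows of the family are not reported here.

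MAGE proteins share a conserved domain through which several of them bind RING-type ubiquitin ligases. The MAGE-A and MAGE-B genes lie on the X chromosome and belong to the cancer/testis antigens, which are transcribed in male germ cells, are silent in most other adult tissues, and are switched on in many tumours, where their peptides can be recognized by T cells. Silencing of MAGE-A genes in somatic cells is known to involve DNA methylation of their promoters, and MAGEA3 and MAGEA12 were put on the panel as genes inducible by 5-aza-cytidine, an inhibitor of DNA methylation. MAGEA3 is the best-known member as a target of tumour immunotherapy and acts with the ligase TRIM28.

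The cells were IMR90, a line of normal human fetal lung fibroblasts. In the kinase wells they carried 1 kinase each, made active with a myristoylation signal and delivered by a retrovirus, and RNA was taken 4 days after infection. Each kinase gave 1 lane, except PIK3CG and PTK2 with a second lane, so that the 3 genes had 555 values over the kinase lanes and 549 over the kinase wells. The 2 IMR90 controls, which the labels call empty-vector wells, gave 3 lanes. The paper also speaks of IMR90 cells without infection, and whether these lanes hold such cells was not tested. SW39, a transformed derivative of IMR90, gave 2 samples, and a commercial mixture of RNA from 10 human cancer lines, with a testicular embryonal carcinoma among them, gave 6 lanes that repeat 1 RNA. Nearly all kinases were thus measured once, and nothing in the labels says that the controls or the SW39 samples were separate cultures, so their spread may be technical. The second lanes of 1 control, PIK3CG and PTK2 may hold other samples. The HK1 lane failed and was left out. It held 92 counts over all endogenous rows, and the geometric mean of its housekeeping genes was 1.26 counts, against a median of 2620 in the other kinase lanes.

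Each value is a number of color-coded probes counted one by one in a lane, without amplification. The total count was between 29629 and 340763 in the kinase lanes, with a median of 160138. The controls had 152599, 142255 and 132257 counts and SW39 had 142790 and 123789. The reference lanes ranged from 108768 to 233536. Background was set lane by lane, at 2 SD over the mean of the 8 negative-control probes. This level had a median of 20.6 counts in the kinase lanes and ranged from 3.01 to 65.8. A normalized count is the count scaled by the positive controls and then by PGK1, TBP and TUBB2A. Values of different genes come from different probes and are not set against each other.

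The sequences before the start sites of the genes are shown because the panel took MAGEA3 and MAGEA12 for their response to an inhibitor of DNA methylation. They are the 250 bases before the start in RefSeq on GRCh38.p14, all on the plus strand of chromosome X, with CpG dinucleotides, the targets of that methylation, in capitals. The MAGEA3 window is chrX:152698544-152698793, and the MAGEB18 window is chrX:26138093-26138342. RefSeq lists 2 starts for MAGEA12, and the window of the first, chrX:152733507-152733756, is shown.
MAGEA3: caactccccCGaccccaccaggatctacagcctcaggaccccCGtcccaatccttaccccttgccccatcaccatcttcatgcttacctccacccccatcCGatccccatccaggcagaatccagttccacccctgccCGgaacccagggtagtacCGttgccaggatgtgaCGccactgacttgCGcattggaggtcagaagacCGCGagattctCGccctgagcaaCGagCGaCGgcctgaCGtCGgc
MAGEA12: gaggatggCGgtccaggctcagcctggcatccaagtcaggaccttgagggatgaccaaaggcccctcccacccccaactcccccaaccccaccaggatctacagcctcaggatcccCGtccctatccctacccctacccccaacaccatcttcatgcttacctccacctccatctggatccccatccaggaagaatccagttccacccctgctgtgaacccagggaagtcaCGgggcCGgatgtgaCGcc
MAGEB18: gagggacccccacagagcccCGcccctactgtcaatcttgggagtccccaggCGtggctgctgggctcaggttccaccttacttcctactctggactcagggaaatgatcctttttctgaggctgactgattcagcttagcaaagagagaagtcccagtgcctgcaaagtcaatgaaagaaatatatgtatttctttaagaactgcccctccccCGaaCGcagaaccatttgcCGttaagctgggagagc
The MAGEA3 window held 15 CpG, and the MAGEA12 and MAGEB18 windows 5 each. Before the second start of MAGEA12 there were 13. Over 35116 windows of the same length the median was 11, so MAGEA3 lay above the middle, MAGEB18 below it, and MAGEA12 on either side depending on the start. The letters CCGGAA, a form of an ETS-type site, were searched on both strands. They occurred 1 time in the MAGEA3 window and 0 times in the windows of MAGEA12, at either start, and of MAGEB18. They occurred in 14.5% of all windows. Other forms of such a site were not searched, so the windows are not compared for ETS-type sites in general. MAGEA3 and MAGEA12 are close relatives, and the best local alignment of their windows took up 70.4% of the MAGEA3 window, with 88.7% identity and 2 gap positions. With the second start of MAGEA12 it took up 87.2%, with 86.3% identity and 9 gap positions. The window of MAGEA6, a gene on the minus strand of the same chromosome, was identical to that of MAGEA3 in 250 of 250 bases. RefSeq also gives MAGEA6 as a synonym of MAGEA3. Since the probe sequences were not used here, it was not tested whether the MAGEA3 or MAGEA12 rows also read transcripts of related MAGE genes.

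The first question was whether the rows can report expression, which the reference RNA answers for MAGEA3 and MAGEA12. MAGEA3 was counted 2841, 2337, 2149, 1807, 1830 and 1256 times in its 6 lanes, and MAGEA12 624, 482, 381, 405, 372 and 269 times. Both were above background in 6 of 6 lanes, MAGEA3 by 39 to 74.2 times and MAGEA12 by 8.41 to 15 times. Of the 57 endogenous rows, 23 were above background in all 6 lanes (40.4%), 13 of them tissue-restricted. MAGEB18 behaved differently, with 32, 15, 30, 21, 20 and 16 counts where the background was 72.9, 32.2, 29, 40.1, 38.1 and 32. It passed in 1 of 6 lanes, and there by 1 count, so the reference RNA did not show that this row can report expression.

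After scaling, the repeats of the reference RNA lay close together. The normalized count was 1159 ± 84.4 (SD, n = 6) for MAGEA3, 241 ± 29.4 for MAGEA12 and 12.8 ± 2.48 for MAGEB18, so that the coefficient of variation was 7.28%, 12.2% and 19.4%. This spread is that of repeated measurement of 1 RNA.

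In the IMR90 controls the rows were near the lowest counts of the assay. The first lane of control 2, the lane of control 1 and the second lane of control 2 gave 5, 5 and 1 counts for MAGEA3, 5, 3 and 3 for MAGEA12, and 5, 3 and 5 for MAGEB18, against a background of 22.7, 25.9 and 17.1. The sum over these lanes was 11 counts for MAGEA3 and for MAGEA12 (exact Poisson 95% interval 5.49 to 19.7) and 13 for MAGEB18 (6.92 to 22.2). These intervals, as others given here, cover counting error only. None of the 3 rows passed the background in any control lane, and the same held for most tissue-restricted rows of the panel.

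**Figure D1:**
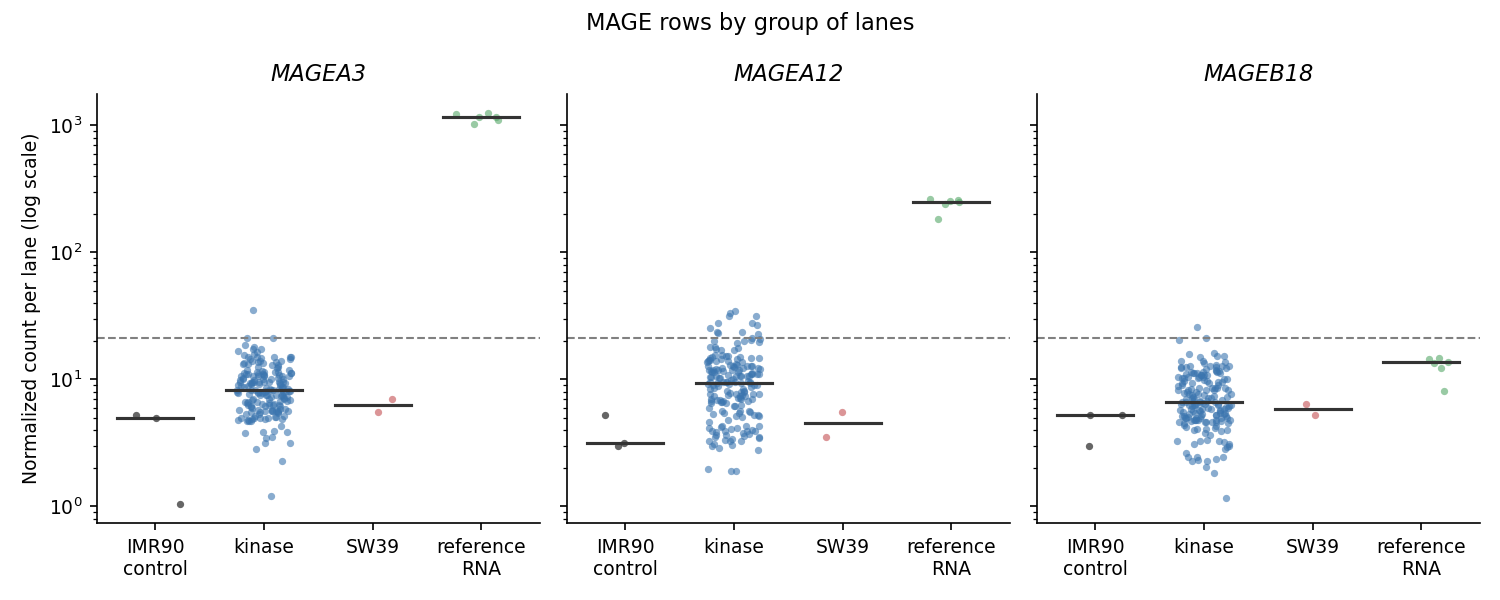
Normalized counts of MAGEA3, MAGEA12 and MAGEB18 in each lane (log axis), with lanes grouped as IMR90 control, kinase, SW39 and reference RNA. A point is a lane, a bar the median of a group, and the dashed line the median background of the kinase lanes after the same scaling. In the reference RNA, MAGEA3 and MAGEA12 stood far above all IMR90 and SW39 lanes, and MAGEB18 lay within the range of the kinase lanes.

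Relative to the controls, the geometric mean normalized count (+ 1) of the reference RNA was 251 times as high for MAGEA3, 53.5 for MAGEA12 and 2.73 for MAGEB18. As the controls were within background, these ratios rest on a few counts. With counts below background set to the background of their lane, the ratio was 48.2 for MAGEA3 and 10.0 for MAGEA12, and that of MAGEB18 turned to 0.990. With the positive controls as the only scaling, the ratios were 499.6, 106.1 and 5.27. In such bulk RNA, fewer cells that express a gene and less RNA per cell cannot be told apart. The rows of 13 other cancer/testis antigens give the setting. Of these, 8 were above background in every reference lane, among them PRAME, SSX1, SSX2 and XAGE1, 1 (DDX53) in 3 lanes, and 4 (BRDT, CTAG1B, FMR1NB and TKTL1) in none. None of the 13 was above background in a control or SW39 lane, and the same held for most tissue-restricted rows.

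SW39 was included in the series as a positive control. The samples SW39#2 and SW39#1 gave 7 and 8 counts for MAGEA3, 7 and 4 for MAGEA12, and 8 and 6 for MAGEB18, with a background of 22.3 and 17.7. All 6 values were below background, where most tissue-restricted rows also lay in SW39. For MAGEA3 and MAGEB18 both SW39 samples were above all 3 control lanes in raw counts, and for MAGEA12 they overlapped the controls. After scaling, MAGEB18 was at 5.252 in SW39#1 and at 5.246 in the second lane of control 2, so almost nothing of its gap remained. How many other rows stood apart in this way was not counted.

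In edgeR's quasi-likelihood test with Benjamini-Hochberg adjustment over the 57 endogenous rows, none of the 3 genes differed between SW39 and controls, with 2 samples in each group. The log2 fold change was 0.72 for MAGEA3 (SE 0.56, adjusted p = 0.439), 0.28 for MAGEA12 (SE 0.60, adjusted p = 0.781) and 0.39 for MAGEB18 (SE 0.55, adjusted p = 0.685). Over all rows, 13 of 57 passed an adjusted p of 0.05 (22.8%), 8 higher and 5 lower in SW39. The median log2 fold change over the 42 tissue-restricted rows was 0.12. The MAGEA12 value turned to -0.10 without SW39#2. The number of calls was 3 without control 1, 2 without control 2, 5 without SW39#1 and 6 without SW39#2.

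The main question of the screen was whether an activated kinase could switch such genes on. Over the kinase lanes, MAGEA3 had a median of 8 counts (range 1 to 24), MAGEA12 a median of 8 (1 to 38) and MAGEB18 a median of 6 (1 to 23). A count of 8 has a Poisson interval of 3.45 to 15.8. The variance over the lanes was 1.49 times the mean for MAGEA3, 3.95 times for MAGEA12 and 1.79 times for MAGEB18, where counting error alone gives a ratio of 1. The lanes differed in depth, and the same ratio was 1.63 to 21.1 for the 8 negative-control probes, so that MAGEA3 lay below all of them, MAGEB18 below 7 and MAGEA12 below 2. MAGEA3 was above background in 3 kinase lanes (1.62%), MAGEA12 in 12 (6.49%) and MAGEB18 in 1 (0.541%). Together these are 16 of 555 values, or 2.88%, against 16.3% over all tissue-restricted rows. The negative-control probes themselves passed in 27 of 1480 values, or 1.82%, spread over NEG_E, NEG_F and NEG_H. Over the tissue-restricted rows, the median was 8.5 lanes, so MAGEA3 and MAGEB18 were below and MAGEA12 above the middle row. With the mean + 3 SD as background, MAGEA12 passed in 4 lanes. With the highest negative control as background, MAGEA12 passed in 18 and MAGEB18 in 4.

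The reference RNA gives a scale for what the kinase lanes could have shown. The background of a kinase lane corresponded to 1.82% of the reference level for MAGEA3 (median, range 1.09% to 4.72%) and to 8.74% for MAGEA12 (5.26% to 22.7%). For MAGEB18 no such share is given, since the reference RNA was itself within background in 5 of its 6 lanes. The highest normalized count in a kinase lane was 35 for MAGEA3, in NUAK2, or 3.02% of the reference level. It was 34.5 for MAGEA12, in MAP3K8, or 14.3%, and 25.7 for MAGEB18, in PIK4CA. No kinase lane thus reached the reference level for MAGEA3 or MAGEA12.

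**Figure D2:**
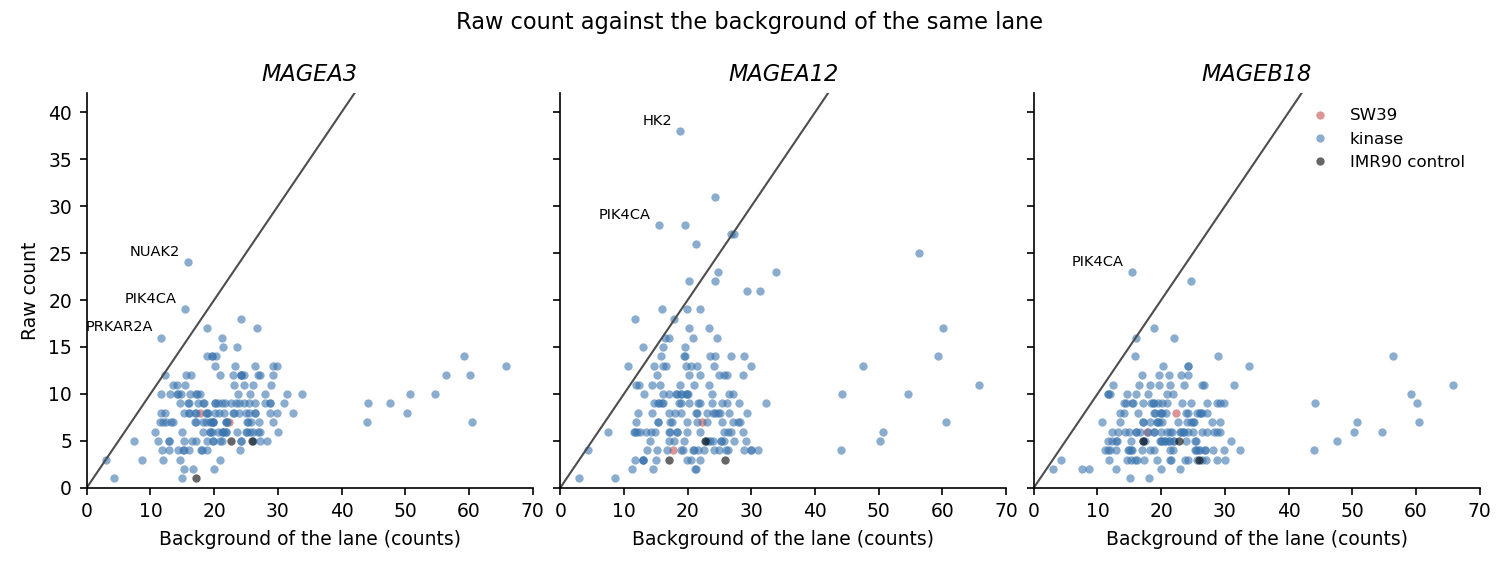
Raw counts of the 3 rows against the background of the same lane, the mean + 2 SD of its negative controls. Points are lanes of IMR90 controls, kinases and SW39, and the line marks a count equal to background. All points for MAGEA3 and MAGEB18 but 3 and 1 lie on or below the line, and 12 lie above it for MAGEA12, with HK2 highest at 38 counts.

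The lanes above background were the following. For MAGEA3 they were NUAK2, PIK4CA and PRKAR2A. NUAK2, a kinase related to AMPK, had 24 counts (interval 15.4 to 35.7) over a background of 15.9. PIK4CA, a phosphatidylinositol 4-kinase, had 19 (11.4 to 29.7) over 15.5, and PRKAR2A, a regulatory subunit of protein kinase A, had 16 (9.15 to 26) over 11.7. In all 3 the interval of the count reached below the background.

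For MAGEA12, the highest lane was HK2, a hexokinase, with 38 counts (26.9 to 52.2) over a background of 18.8. EPHA4, a receptor tyrosine kinase, had 31 counts (21.1 to 44) over 24.2, and FASTK and PIK4CA had 28 each (18.6 to 40.5) over 19.6 and 15.5. The other 8 lanes were AAK1, MAP3K8, PFKM, NUAK2, PRKAR2A, CAMK2D, NADK and PIK3R5, with 13 to 27 counts. Only for HK2 and PIK4CA did the whole interval lie above the background of the lane.

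For MAGEB18, PIK4CA was the 1 lane above background, with 23 counts (14.6 to 34.5) over 15.5. All 3 genes passed in PIK4CA, 2 passed in NUAK2 and in PRKAR2A (MAGEA3 and MAGEA12 in both), and 1 passed in 9 further lanes. In 93.5% of the kinase lanes, none did.

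Single wells were ranked by Z-score, the distance in SD of the log2 normalized count from its mean over the kinase and control wells. The SD was 0.58 for MAGEA3, 0.79 for MAGEA12 and 0.64 for MAGEB18, and the median over the tissue-restricted rows was 0.56, so MAGEA12 was among the most variable rows, with 2 above it. A Z-score above 2.5 was reached by 1 well for MAGEA3 (NUAK2, 3.42), 0 wells for MAGEA12 and 1 well for MAGEB18 (PIK4CA, 2.81). These are 2 of 549 values, or 0.364%, and over all tissue-restricted rows 0.39% of the values passed. Neither of these 2 wells had a replicate, and no Z-score was tested against error.

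After NUAK2, the highest wells for MAGEA3 were PIK4CA (2.22), MAP3K8 (2.21), PIP5K2A (1.90) and PDIK1L (1.80). The PIP5K2A value rested on 3 counts. Its lane had the lowest total, 29629, and was scaled up by 6.20. PDIK1L had 7, 10 and 6 counts for MAGEA3, MAGEA12 and MAGEB18, none of them above background, and was scaled up by 2.55. For MAGEA12 the highest were MAP3K8 (2.36), HK2 (2.30), EPHA4 (2.22), PIK4CA (2.19) and FASTK (1.98). For MAGEB18, PIK4CA was followed by PLK3 (2.40), NUAK2 (2.31), RPS6KL1 (1.81) and MAP3K8 (1.77).

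At the lower end, CLK1 (-3.57), CLK2 (-2.58), PFKL (-2.21), IKBKE (-1.99) and STK32B (-1.98) were the lowest wells for MAGEA3. CLK1 and CLK2, which phosphorylate splicing factors, had 1 and 2 counts. For MAGEA12 the lowest were PLK4 (-2.24), TBK1 (-2.24), DGKG (-2.19), MELK (-1.75) and CDK7 (-1.70), with 1 to 3 counts each. For MAGEB18 they were YES1 (-2.88), IHPK2 (-2.29), NEK11 (-2.11), PIK3CB (-1.95) and CLK2 (-1.95), also with 1 to 3 counts. The IMR90 controls 1 and 2 were below the mean for each gene, at -1.08 and -2.37 for MAGEA3, -1.66 and -1.21 for MAGEA12, and -1.51 and -0.49 for MAGEB18.

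**Figure D3:**
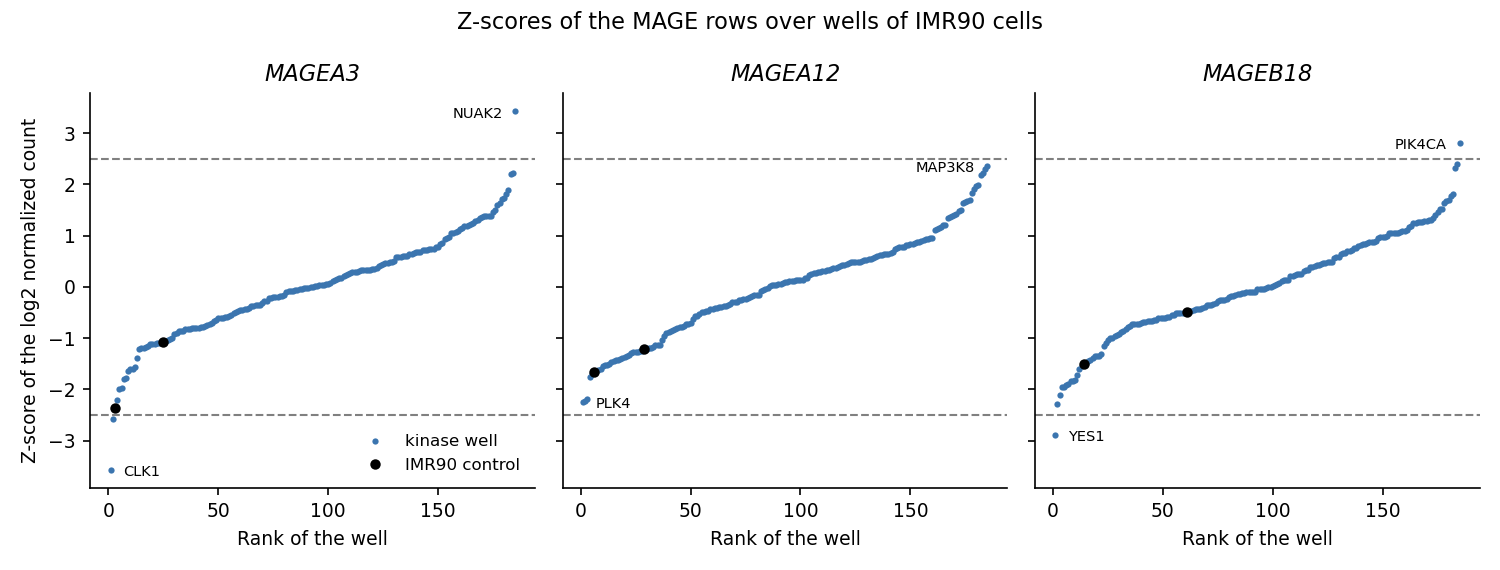
Wells of IMR90 cells ranked by the Z-score of the log2 normalized count of each gene. Blue points are kinase wells, black points the 2 IMR90 controls, and dashed lines mark 2.5 SD above and below the mean. NUAK2 for MAGEA3 (3.42) and PIK4CA for MAGEB18 (2.81) lie above the upper line, and no well does for MAGEA12.

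The same wells recurred. Among the 10 highest kinase wells of each gene, 4 (MAP3K8, NUAK2, PDIK1L and PIK4CA) were shared by all 3, and each pair of genes shared 4 or 5. Over the kinase wells, each gene with 1 value per well, the Spearman correlation of the log2 normalized counts was 0.49 between MAGEA3 and MAGEA12, 0.48 between MAGEA3 and MAGEB18, and 0.53 between MAGEA12 and MAGEB18. The genes of a well share its lane, depth and scaling factor, and the part of these was not tested. The rows most like each gene were RFX4 (0.50), MAGEA12 (0.49) and SSX1 (0.49) for MAGEA3, and CTAG1B (0.71), MAEL (0.69) and SSX1 (0.65) for MAGEA12. For MAGEB18 they were MAGEA12 (0.53), CTAG1B (0.51) and RFX4 (0.51). CTAG1B encodes the antigen NY-ESO-1, MAEL is a piRNA pathway gene of the germline, SSX1 is an X-linked cancer/testis antigen, and RFX4 is a transcription factor of testis and brain.

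Kinase wells were next set against controls as groups. For MAGEA3, the control wells were at 4.97 and 2.56 normalized counts and the kinase lanes at a median of 8.22 (1.21 to 35). For MAGEA12 the controls were at 2.98 and 4.07 and the kinase lanes at 9.38 (1.89 to 34.5), and for MAGEB18 at 2.98 and 5.22 against 6.58 (1.17 to 25.7). The groups overlapped for each gene. Of the kinase wells, 87.4% were above both controls for MAGEA3, 85.2% for MAGEA12 and 67.8% for MAGEB18.

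The mean log2 difference between kinase and control wells was 1.01 for MAGEA3, 1.14 for MAGEA12 and 0.64 for MAGEB18. In a two-sided exact permutation test over all 17020 choices of 2 wells, p was 0.0180, 0.0378 and 0.160. After Benjamini-Hochberg adjustment over the 57 endogenous rows the exact p was 0.171, 0.215 and 0.361, so none of the 3 genes passed 0.05. By that test 3 of 57 rows did (5.26%), and 10 did before adjustment. Without control 1 or without control 2, the adjusted count was 0. The median difference over the tissue-restricted rows was 0.50, and 38 of 42 were above 0, so a higher mean in kinase wells was common to nearly all of the tissue-restricted rows. Leaving out control 1 gave differences of 1.38, 0.96 and 0.32, and leaving out control 2 gave 0.63, 1.31 and 0.97. With counts below background set to background, the differences were -0.049, -0.032 and -0.053. All control values and nearly all kinase values are then the background of their lane, so these last values compare background levels and not the genes.

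Sample numbers fall into 17 blocks of 12, and the level of the 3 genes moved along them. The block medians of the normalized count ran from 5.78 to 13.9 for MAGEA3, from 4.01 to 16.1 for MAGEA12 and from 4.45 to 10.5 for MAGEB18. Over blocks 1 to 7 the median of these medians was 6.67, 7.11 and 5.47, and over the later blocks 10.00, 11.8 and 8.42. The labels do not say what a block stands for. Background was highest in block 3, with a median of 52.6 counts, against 26.6 in block 5, the next highest. A count thus had to be higher in block 3 to pass. Both controls belong to the first 2 blocks. With lanes of the same block alone, control 1 in block 1 was below the mean of 10 kinase lanes by 0.49 for MAGEA3, 0.94 for MAGEA12 and 0.59 for MAGEB18 on the log2 scale. In block 2, the first lane of control 2 was below the mean of 9 kinase lanes by 0.45, 0.33 and 0.03, and for MAGEB18 only 3 of the 9 lanes were above it. The second lane of control 2 carries sample number 1, but its label adds a 2 to that number, so it may come from another run. Against the same 10 kinase lanes, all without that mark, it was below the mean by 2.03 for MAGEA3 and 0.88 for MAGEA12. For MAGEB18 it was above that mean, with a difference of -0.06. This lane is therefore not taken as a lane of block 1. In the first lanes of both controls, the differences within blocks kept the direction of the pooled ones for MAGEA3 and MAGEA12. For MAGEB18 they did so in block 2 by only 0.03. These differences of single lanes were not tested. With blocks centred, the differences over all wells were 0.81, 0.81 and 0.26. By exact permutation over all 17020 choices, the adjusted p was 0.162, 0.345 and 0.760.

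**Figure D4:**
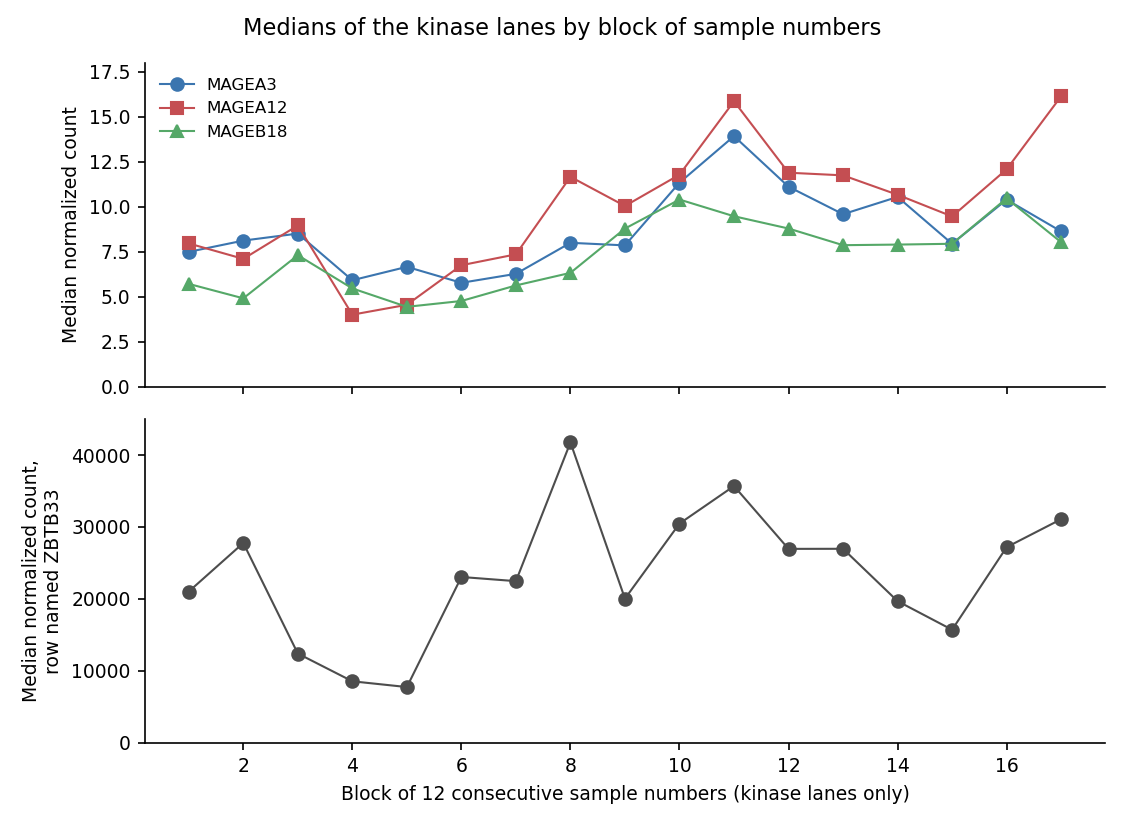
Median normalized count of the kinase lanes in each block of 12 consecutive sample numbers, for the 3 genes (above) and for the row named ZBTB33 (below). The last block holds 2 lanes. Medians of the 3 genes were lowest in blocks 4 to 6 and highest in block 11 for MAGEA3 (13.9), block 17 for MAGEA12 (16.1) and block 16 for MAGEB18 (10.5).

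The counts of the 3 genes moved with another row of the panel. The row that the files name ZBTB33, after a methyl-CpG-binding transcription factor, is the one that sets kinase lanes apart, with a median of 20160 counts and up to 116387 there, 9 to 18 in the controls and 8 in both SW39 samples. This likeness was looked for once the values were known. Over the kinase lanes, the Spearman correlation of raw counts with this row was 0.76 for MAGEA12, 0.51 for MAGEB18 and 0.43 for MAGEA3. It was between 0.02 and 0.17 for the 8 negative-control probes and had a median of 0.31 over the tissue-restricted rows. MAEL (0.85) and CTAG1B (0.81) were the 2 rows above MAGEA12, and PIWIL1 (0.75) and ROPN1 (0.71) came next.

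Depth moved with the counts as well. Against the total count of the lane, which includes the ZBTB33 row, the correlation was 0.49 for MAGEA12, 0.39 for MAGEB18 and 0.44 for MAGEA3, the last being no lower than that with the ZBTB33 row. Against the sum of the other counts of the lane it was 0.33 for MAGEA12, 0.29 for MAGEB18 and 0.36 for MAGEA3, while the negative-control probes were at 0.47 to 0.73. Without the 2 lanes farthest from the median of the ZBTB33 row, HK2 and AMHR2, Pearson's r for MAGEA12 was 0.82, against 0.84 with them. Within each of the 16 blocks with 6 or more lanes, the Spearman correlation for MAGEA12 was above 0 (0.13 to 0.93, median 0.73). This also held for MAGEB18 (0.14 to 0.84, median 0.53), and for MAGEA3 it held in 12 of 16 blocks (-0.18 to 0.76, median 0.34). The negative-control probes were above 0 in 7 to 13 of 16 blocks, with medians of -0.02 to 0.28. With each block centred, the correlation was 0.32 for MAGEA3 and 0.29 for NEG_G. The remaining negative-control probes were between 0.02 (NEG_C) and 0.19 (NEG_D). MAGEA3 was thus above each of these probes, though close to NEG_G, and its difference from them was not tested. After normalization and log2 the values were 0.72, 0.43 and 0.33 for MAGEA12, MAGEB18 and MAGEA3. With the row named MyrFlag, after the myristoylation-Flag tag of the kinases, they were 0.23, 0.23 and 0.36 on raw counts. That row did not set kinase wells apart, with a mean log2 normalized count of 9.34 in kinase wells and 9.41 in controls. The row named ZBTB33 was higher in kinase wells by 10.35 on the log2 scale, and 100% of the kinase wells were above both controls. The tag was encoded by the kinase vectors, and of these 2 rows only the one named ZBTB33 was higher in kinase wells. Whether the names of these rows were exchanged was not tested. The names of the files were kept, for the MAGE rows as well, and were not checked.

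**Figure D5:**
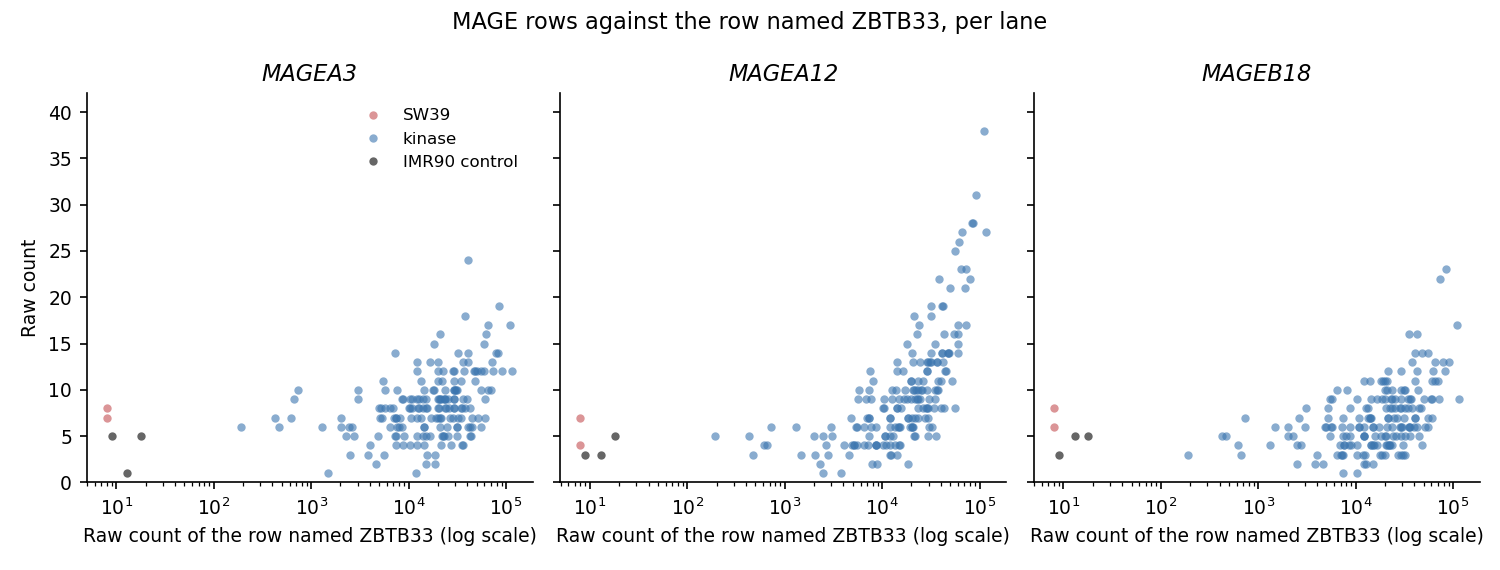
Raw counts of the 3 rows against the raw count of the row named ZBTB33 in the same lane (log axis), for lanes of IMR90 controls, kinases and SW39. MAGEA12 was higher where that row was higher (Spearman 0.76), MAGEB18 (0.51) and MAGEA3 (0.43) followed it less closely, and the controls and SW39 lie at the left with 1 to 8 counts.

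A straight line through the kinase lanes gave 2.48 counts of MAGEA12 for each 10000 counts of the ZBTB33 row, and 3.68 counts where that row is at 0. The mean of the control lanes, which were not in the fit, was 3.67. For MAGEB18 the line gave 0.99 per 10000 from 4.56 counts, with a control mean of 4.33, and for MAGEA3 0.84 from 6.29, with a control mean of 3.67. SW39, where the ZBTB33 row was at 8 counts, had means of 5.5 for MAGEA12, 7 for MAGEB18 and 7.5 for MAGEA3, all above the start of the line. Of the 12 lanes with MAGEA12 above background, 11 were above the median of the ZBTB33 row, and HK2 (110142), EPHA4 (91398), PIK4CA (84960), FASTK (83545) and PFKM (78964) were among its highest. NADK, at 18026, was the exception. NUAK2, the highest lane for MAGEA3, had 41047. In the reference RNA the ZBTB33 row was at 14 to 84 counts, while MAGEA3 and MAGEA12 were at their highest there. The part of the ZBTB33 row in the counts of the MAGE genes was not tested.

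By the geometric mean of the normalized counts (+ 1), the groups stood in the order reference RNA, kinase lanes, SW39 and controls for each gene. For MAGEA3 these means were 1156, 8.23, 6.25 and 3.23, for MAGEA12 239, 8.90, 4.44 and 3.68, and for MAGEB18 12.6, 6.76, 5.79 and 4.36. For MAGEA3 and MAGEA12 the step to the reference RNA was beyond the spread of all lanes. All other neighbours overlapped in their lanes or did not pass their test, and for MAGEB18 the reference lanes lay within the range of the kinase lanes. As all SW39 and control values and nearly all kinase values were below background, no order among these 3 groups is established. Within block 2, for example, SW39#2 was at 6.36 for MAGEB18 and the median of the kinase lanes was 4.92.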

How the data were processed

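Per the file headers and labels, the authors deposited 1 Nanostring file of raw counts per lane, with no normalization, and a series-wide table of signal, equal to the count times a lane factor except in 8 lanes left unscaled. The lanes used were 185 of 183 kinases, 3 of IMR90 controls, 2 of SW39 and 6 of reference RNA. The counts were used, and the table served as an alternative. Counts were scaled in Python 3.11.15 by the geometric mean of POS_A-F and then of PGK1, TBP and TUBB2A, relative to the mean over all 197 lanes, and a pseudocount of 1 was added before log2. Lanes of 1 name were averaged on the log2 scale, or summed for edgeR. SW39 was tested in R 4.3.3 with edgeR 4.0.16 (quasi-likelihood, no filter, offset from the 3 housekeeping genes), and also with limma 3.58.1 and DESeq2 1.42.0. The SE of a log2 fold change is its size divided by the normal deviate of its p. Kinase wells were tested by exact permutation of wells. The genes named were the members, their 5 highest and 5 lowest wells, wells past a Z-score of 2.5, wells with 2 or more members above background, the 3 most alike rows and other cancer/testis antigens. The members and lists were chosen with earlier results of these data known. Rows not named are not reported here. Promoter sequences are from RefSeq on GRCh38.p14. The computations were tested on simulated data.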

Additional observations from a re-analysis of the deposited data

Results flagged for a closer look

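Among the 6 lanes of the reference RNA, 1 lane stood below the others for MAGEA12 and another for MAGEB18, by Dixon's criterion at the 95% level. For MAGEA12 the low lane had a normalized count of 183.07, and the other 5 were between 241 and 263. Its total count was 181114, and MAGEA3 was lowest in the same lane, at 1033, without being set apart. For MAGEB18 the low lane had 8.04, from 15 counts, and the others were between 12.3 and 14.8. Each of 3 genes was examined, and chance flags about 5% of groups.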

How the results depend on the processing

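None of the 3 genes passed an adjusted p of 0.05 in the comparison of SW39 or of kinase wells with controls, under any of the alternatives run (adjusted p of 0.0664 to 0.985 for kinase wells, by exact permutation, and of 0.240 to 0.930 for SW39). With counts floored at background, the difference between kinase wells and controls turned to -0.049 for MAGEA3, -0.032 for MAGEA12 and -0.053 for MAGEB18. By construction, nearly all kinase and control values are then the background of their lane, so differences, counts and Z-scores of these wells with the floor rank background levels and not the genes. All other alternatives kept its direction, that without the PIP5K2A well included, which was chosen after seeing the data. For MAGEA3, MAGEA12 and MAGEB18 it ranged over 0.63 to 1.38, 0.96 to 1.31 and 0.32 to 0.97 with 1 control left out, and was 0.42, 0.53 and 0.29 with a pseudocount of 10. It was 0.61 for MAGEA3 with second lanes left out and 0.26 for MAGEB18 with centred blocks. Of 57 rows, 3 differed between kinase wells and controls, and 1 did with the deposited table, all 4 housekeeping genes, a pseudocount of 10, the floor, centred blocks or the second lanes left out. That count was 0 and 0 when either control was left out (exact permutation, with 5 and 5 rows at an unadjusted p under 0.05, where the smallest p is 0.00543).

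Between SW39 and controls, 13 rows differed, against 7 with limma, 8 with the first lane only, and 2 to 6 when 1 sample was left out. Of the 42 tissue-restricted rows 4 differed, and 3 did when p was adjusted over them alone. With 1 sample left out, where a lone sample is assumed to vary like the others, the log2 fold change ranged over 0.33 to 0.98 for MAGEA3, -0.10 (without SW39 replicate 2) to 0.60 for MAGEA12 and 0.16 to 0.94 for MAGEB18. It was 0.29 for MAGEA3 and 0.17 for MAGEA12 with the first lane only, 0.07 for MAGEA12 and 0.18 for MAGEB18 with TMM, and 0.45 for MAGEA12 with 4 housekeeping genes. With the replicate number as a block, the log2 fold changes were 0.66, 0.35 and 0.45 for MAGEA3, MAGEA12 and MAGEB18, and 13 rows differed. The block changed no call of these genes. Deviations of same-numbered samples correlated at 0.61 over 12 rows, but with 2 pairs the numbers were not taken as a pairing. A filter on low counts (filterByExpr) kept 43 rows and none of the 3 genes, so it gave no value for them.

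Lanes above background numbered 4 for MAGEA12 with mean + 3 SD, and 18 for MAGEA12 and 4 for MAGEB18 with the highest negative control. Wells with a Z-score above 2.5 were 3, 4 and 3 for MAGEA3, MAGEA12 and MAGEB18 with a pseudocount of 10, and 9, 8 and 9 with the floor. They were 2 for MAGEA12 with centred blocks, and 2 for MAGEB18 with 4 housekeeping genes. With the floor, the Z-scores of MAGEA3 in NUAK2 and of MAGEB18 in PIK4CA were 1.72 and 0.56.

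The ratios of reference RNA to controls for MAGEA3, MAGEA12 and MAGEB18 were 499.6, 106.1 and 5.27 with positive controls only, 48.2, 10.0 and 0.990 with the floor, and 83.8, 18.4 and 1.61 with a pseudocount of 10. With 4 housekeeping genes they were 311 and 66.2 for MAGEA3 and MAGEA12. Leaving out a control gave 194.04 to 324.9 for MAGEA3 and 2.18 to 3.41 for MAGEB18. For changes other than those with the floor, the cause was not tested. Low counts in kinase, SW39 and control lanes, with medians of 8, 8 and 6 in the kinase lanes, limit the comparisons that use them.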
